A study of Homo sapiens with 9 samples.

Results

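Arrays of MCF10A cells that had received an ERBB2 retrovirus were compared with arrays of cells that had received the empty virus. MCF10A is an immortalized, non-tumorigenic line of human mammary epithelial cells that needs added EGF to grow. The comparison used 6 of the 9 one-colour Affymetrix arrays of the study, chosen by their sample titles: 3 of cells transduced with pBabe alone and 3 of cells transduced with pBabe-ErbB2. Both groups were kept, after infection, in medium with 2% horse serum and no EGF. Before that, all cells had been maintained in DMEM/F12 with 5% horse serum, EGF at 20 ng/ml, hydrocortisone at 0.5 µg/ml, cholera toxin at 100 ng/ml and insulin at 10 µg/ml, together with antibiotics. The remaining 3 arrays were of empty-vector cells given EGF at 50 ng/ml for 2 h. They entered the estimate of the spread between arrays, the filter on low signal and the choice of each gene's probe set. They did not enter the group means compared. Replicates are labelled as biological, without a statement that each was infected separately, and p-values therefore reflect only the spread within groups among these 9 arrays. The cells were a transduced population, and selection, the share of cells infected and the time between infection and harvest were not stated in the labels. Of 54675 probe sets, 41097 carried the name of 1 gene, and 26383 of those passed a filter on low signal and represented 13726 genes.

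ERBB2 encodes a receptor tyrosine kinase of the EGF receptor family that has no known ligand of its own. It signals as a partner of the other family members, or alone when it is abundant, through the RAS-ERK and PI3K-AKT pathways, and its gene is amplified in a subset of breast cancers. In mammary epithelium, growth factor signalling sets proliferation, nutrient use, adhesion and the balance between quiescence and growth. Genes of the cell cycle and of ERK output are set aside here, and the results concern other functions: the cell surface and matrix, signalling receptors, metabolism, the nucleus and the organelles.

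The values are linear MAS5 signals. The signal of every array had the same trimmed mean, 100.03 after leaving out 2% of probe sets at each end, and the median signal lay between 19.85 and 20.2 on vector arrays and between 17.9 and 20.1 on the other 3. The number of arrays limits the precision. Signals under 16 made up 44.1% to 47.3% of the probe sets of an array, and as no detection calls were used, low signals may not stand above background. Several control probe sets differed between the groups. For 18S ribosomal RNA the 3′ control read 3626, 1945 and 4569.7 on the vector arrays and 12323, 11926 and 13513 on the arrays labelled ERBB2, and 5′ over 3′ signal for ACTB was 0.377, 0.325 and 0.436 against 0.715, 0.796 and 0.701. Neither overlapped between groups, and 0.1 is the smallest p an exact two-sided permutation test of 3 against 3 arrays allows, which both reached. The GAPDH ratio did not differ beyond its spread (0.847 ± 0.034 against 0.869 ± 0.0318, SD, n = 3; exact permutation p = 0.5). The GAPDH signals themselves were lower on every array labelled ERBB2 than on any vector array. Their means were 17766 against 14236 at the 3′ end and 15024 against 12365 at the 5′ end. The control for Alu repeats was lower in the same way (20658 against 15787). Of 18 probe sets for the bacterial and phage spike-ins bioB, bioC, bioD and cre, 14 overlapped between groups, such as bioB at its 5′ end (411 ± 33.4 against 436 ± 15.1; exact permutation p = 0.3). The other 4, all for bioC or bioD, were lower on every array labelled ERBB2 than on any vector array (exact permutation p = 0.1 each), from 1550.2, 1806 and 1583 to 1063, 1374 and 1225 for a bioC probe set and from 5929, 7373 and 5887 to 4194, 5098 and 4967 for a bioD probe set. The differing controls separate the same 2 groups as every gene below, and their part in the results was not tested.

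**Figure D1:**
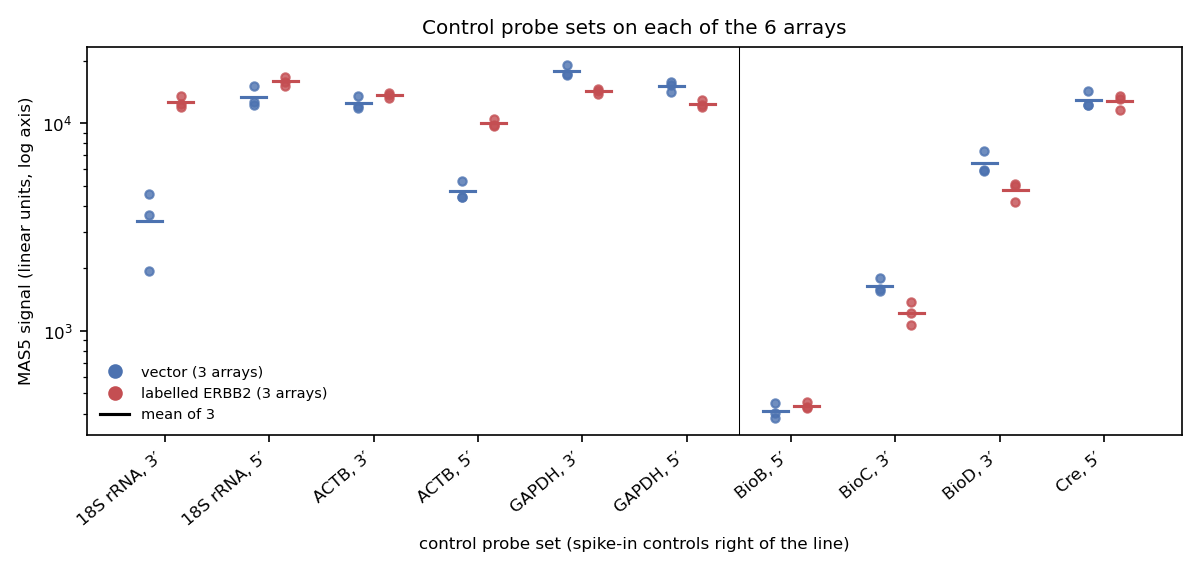
Signal of 10 control probe sets (linear units, log axis) on the 3 vector arrays and the 3 arrays labelled ERBB2, with each group's mean as a bar. The 3′ control for 18S ribosomal RNA averaged 3380 on vector arrays and 12587 on the others, the BioB spike-in averaged 411 and 436, and the BioC and BioD 3′ spike-ins were lower on every array labelled ERBB2 than on any vector array.

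Marker lists described the cells. Of 12 basal mammary epithelial markers 8 had a single-gene probe set, all 8 passed the filter, and their summed signal ranged from 28881 to 32920 for vector and from 21929 to 23096 for ERBB2 arrays. A sum weighs the brightest genes most. Gene by gene, 4 of these 8 were called lower, 1 higher and 3 neither way (median log2 change -0.32). The summed signal of 10 luminal markers lay between 5224 and 5912 against 7887 and 8654, with 2 of the 10 under 16 on all 6 arrays. Single luminal genes moved both ways: of the 8 past the filter, 3 were called higher, 2 lower and 3 neither way (median log2 change 0.07). The 10 fibroblast markers summed to between 1593 and 1791 against 870 and 1013, with 1 of the 10 under 16 throughout; of the 5 past the filter DCN (-1.80) and COL1A1 (-0.55) fell and FAP rose (1.99). The 8 leukocyte markers on the array summed to between 235 and 242 against 195 and 243, and 2 of them were under 16 on every array. The 9 endothelial markers summed to between 90.3 and 137 against 141 and 166, with 2 under 16 on every array. In arrays of whole cultures, fewer cells of a kind and less RNA per cell cannot be told apart, and this holds for every change given here.

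The transcript named in the labels did not settle them. The brightest ERBB2 probe set read 184, 216 and 122 on the vector arrays and 114, 72.2 and 110.2 on the arrays labelled ERBB2. Every vector array was above every array labelled ERBB2, with a log2 change of -0.71 ± 0.20 (SE; limma adjusted p = 0.006756), and the change was -0.55 (adjusted p = 0.05061) once vector replicate 2 was left out and -0.54 (adjusted p = 0.05173) once ERBB2 replicate 2 was, so that each ended the call. Over all 19 alternative settings the adjusted p ranged from 0.001085 to 0.05173. A dimmer probe set read 5.68, 9.69 and 22.5 against 34.1, 34.2 and 38.5, so that the order of the groups was the opposite one (log2 change 0.89 ± 0.26, adjusted p = 0.008824). For the remaining probe set the groups overlapped, at 11.3, 22.6 and 10.5 against 8.89, 22 and 20.5 (log2 change 0.10, adjusted p = 0.8236), and the sign turned without ERBB2 replicate 2 (-0.00878). The positions of the probes and the species and extent of the introduced sequence were not stated either. The group is therefore called "labelled ERBB2", and every direction below is that of the arrays so labelled against the vector arrays.

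Of 32768 probe sets tested, 5798 were higher and 6891 lower at a Benjamini-Hochberg adjusted p under 0.05 in limma, 38.7% in all, and 3631 of these had changed at least 2-fold on the scale of log2(signal + 16). Counted by gene, through the probe set with the highest mean signal, 2855 of 13726 genes (20.8%) rose and 3425 (25.0%) fell, 45.8% together, and the groups did not overlap for 52.7% of genes. At least 2-fold changes were 859 rises and 966 falls, and the median change of all genes was -0.07. These shares are the background against which each list below is read. A log2 change below is for log2(signal + 16), which understates the change of dim genes. Of 256 genes chosen by rule 253 were called, with SEs of the log2 change between 0.06 and 0.35 and limma adjusted p-values between 5.246e-20 and 0.01384; SEs and p-values are therefore given below only for the genes that lead a result. Of the 168 chosen genes with further probe sets past the filter, 138 had another one called the same way and 13 another one called the opposite way, namely ERBB2 and 12 genes that had been chosen for it.

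Among the largest rises was SERPINE2, protease nexin 1, a secreted inhibitor of thrombin and plasminogen activators. It read 44, 44.1 and 41.8 on vector arrays and 623, 549 and 492 on arrays labelled ERBB2 (log2 change 3.26 ± 0.13 SE, adjusted p = 1.009e-13). SLC20A1, a sodium-coupled phosphate importer, read 684, 769 and 708 against 5186, 5351 and 5047 (2.82 ± 0.07, adjusted p = 7.325e-17). FABP5, the epidermal fatty acid carrier, read 254, 238 and 219 against 1629, 1719 and 1682 (2.74 ± 0.09, adjusted p = 4.741e-15). In all 3 genes the arrays of a group lay close together. Separate groups were a condition of the choice and are no result here. The zinc finger protein gene ZNF367 went from a mean of 8.19 ± 5.81 (SD, n = 3) to 217 ± 44.5 (3.28), the calcium-binding matricellular SMOC1 from 20.6 ± 8.64 to 290.2 ± 23.2 (3.09), and the domesticated transposase gene PGBD5 from 14.3 ± 1.51 to 219 ± 17.7 (2.95). The keratin KRT80 rose by 2.84, the carboxylesterase CES1 by 2.78 and the matrix protein gene THSD4, related to the ADAMTS proteases, by 2.74. UHRF1, which brings the maintenance DNA methyltransferase to replicating DNA, read 109.7, 115 and 78.9 against 809, 846 and 869 (2.88). The replication and repair genes GINS2 (3.0), EXO1 (2.81), GINS1 (2.74) and MCM2 (2.74) rose as well.

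RNA45SN5, a locus of the ribosomal RNA precursor, was among the same rises. Its brighter probe set read 47.4, 47.1 and 72.5 against 397, 503 and 680.3 (2.91 ± 0.18, adjusted p = 1.045e-10), and its other probe set averaged 40.1 against 171 (1.74). The 3′ control for 18S ribosomal RNA moved with it, as given above, while the 5′ control differed less, averaging 13312 against 15873. Whether precursor, mature ribosomal RNA or its labelling differed was not tested.

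Among the largest falls was GLUL, glutamine synthetase, which makes glutamine from glutamate and ammonia. It read 10094, 11347 and 10019 on vector arrays and 714, 681 and 711 on arrays labelled ERBB2 (-3.87 ± 0.07, adjusted p = 1.528e-18). IGFBP6, a secreted protein that binds IGF-II, read 1279.5, 1376 and 1673 against 89.6, 72 and 90.3 (-3.86 ± 0.12, adjusted p = 3.661e-15). GAS1, a membrane-anchored Hedgehog co-receptor first described in growth-arrested cells, read 1433, 1479.8 and 1545 against 130.0, 134 and 133 (-3.34 ± 0.09, adjusted p = 4.997e-16). Each of these genes was above 1000 on every vector array and under 1000 on every array labelled ERBB2. FGFR3, a fibroblast growth factor receptor, went from 667 ± 53 to 51.8 ± 3.06 (-3.33) and TIMP3, an inhibitor of matrix metalloproteinases and sheddases, from 979 ± 13.6 to 78.3 ± 12.6 (-3.41). PNRC1, a coregulator of nuclear receptors, went from 3447 ± 73.6 to 281 ± 38.3 (-3.55), and AHNAK2, a giant scaffold protein, from 2799 ± 119 to 236 ± 17.5 (-3.48). Enzymes and carriers in this group were the aldehyde dehydrogenase ALDH3A1 (-3.63), the selenium-binding methanethiol oxidase SELENBP1 (-3.82), the fructose carrier SLC2A5 (-3.28) and BBOX1, the last enzyme of carnitine synthesis (-3.16). MR1, which presents vitamin B metabolites to T cells, fell by 3.25 on the log2 scale, and further falls were in the microtubule-associated MAP7D2 (-3.99), CLIC3, of the chloride intracellular channel family (-3.36), C5orf46 (-3.29), the pseudogene ANKRD20A11P (-3.21) and EPB41L4A, of the band 4.1 family (-3.16). Only called genes with separate groups could enter this choice, and neither property is a result here.

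**Figure D2:**
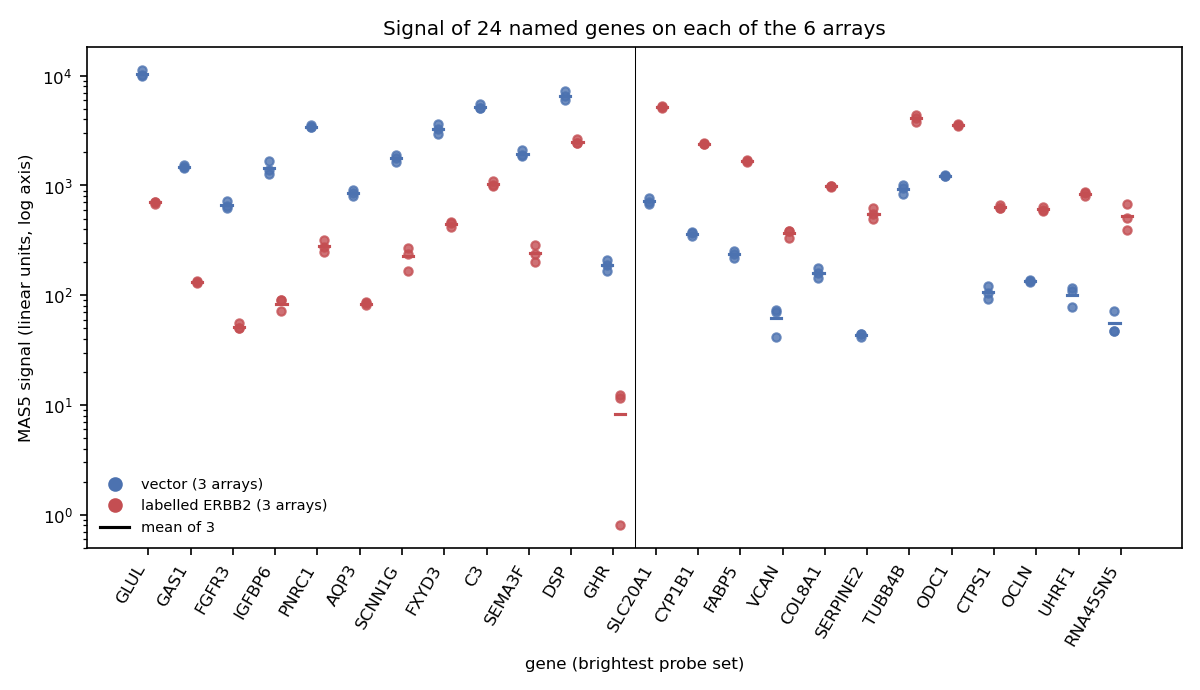
MAS5 signal (linear units, log axis) of 24 named genes on each of the 3 vector arrays and 3 arrays labelled ERBB2, with the mean of each group as a bar; falls stand left of the line and rises right of it. For GLUL the vector arrays lie between 10019 and 11347 and the arrays labelled ERBB2 between 681 and 714, and GHR, a dim gene, spreads from 0.803 to 12.3 on the latter.

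FOXO factors are transcription factors that are held out of the nucleus when growth factor signalling through AKT is on, and many genes of quiescent cells carry their binding motif. The 250 bases upstream of each gene's start were searched on both strands for GTAAACA (FOXO), CACGTG (the E-box bound by MYC and its relatives), TGACGTCA (cyclic AMP response element) and TGANTCA (AP-1), motifs of which none contains another. RefSeq promoters (GRCh38.p14) matched 11052 of the genes tested, of which 2.05% held the FOXO motif and 8.68% the E-box, against 2.98% and 6.49% of all 27305 promoters. The cyclic AMP response element was in 2.75% of the matched genes tested and 1.77% of all promoters, and the AP-1 motif in 4.14% and 6.60%. Of the 40 largest falls, 30 had a promoter. Of these, 4 held the FOXO motif (13.3%), 2 the E-box (6.67%), 0 the cyclic AMP response element and 1 the AP-1 motif (3.33%). Of the 40 largest rises, 29 had one. Of these, 0 held the FOXO motif, 4 the E-box (13.8%), 3 the cyclic AMP response element (10.3%) and 3 the AP-1 motif (10.3%). The counts are small and were not tested. A match describes these letters in this window and not a bound site. The 4 promoters belong to SELENOP, a plasma selenium carrier, the antiproliferative BTG1, IGFBP6, and TXNIP, an arrestin that binds thioredoxin and restrains glucose uptake. They are shown because they are the falls whose promoter holds the motif, 5′ to 3′ on the strand of the gene, with the match in capitals on whichever strand it lies; TGTTTAC is its reverse complement. The match begins 45 bases upstream of the start in SELENOP (chr5:42811893-42812142, minus strand), 209 in BTG1 (chr12:92145847-92146096, minus), 186 in IGFBP6 (chr12:53097417-53097666, plus) and 124 in TXNIP (chr1:145996580-145996829, minus).
SELENOP: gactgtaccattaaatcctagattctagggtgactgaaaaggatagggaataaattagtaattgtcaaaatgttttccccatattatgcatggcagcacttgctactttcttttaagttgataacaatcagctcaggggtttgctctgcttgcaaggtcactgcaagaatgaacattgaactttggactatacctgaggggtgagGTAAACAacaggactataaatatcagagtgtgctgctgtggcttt
BTG1: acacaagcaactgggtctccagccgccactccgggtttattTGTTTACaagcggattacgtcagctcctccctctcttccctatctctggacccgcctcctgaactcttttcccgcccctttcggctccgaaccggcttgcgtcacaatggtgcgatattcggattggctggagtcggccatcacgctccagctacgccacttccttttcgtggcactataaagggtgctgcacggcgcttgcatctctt
IGFBP6: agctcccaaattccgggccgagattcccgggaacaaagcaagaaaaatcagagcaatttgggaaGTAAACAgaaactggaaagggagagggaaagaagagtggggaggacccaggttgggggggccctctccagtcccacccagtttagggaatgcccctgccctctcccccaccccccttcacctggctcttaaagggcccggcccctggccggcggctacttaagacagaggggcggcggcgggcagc
TXNIP: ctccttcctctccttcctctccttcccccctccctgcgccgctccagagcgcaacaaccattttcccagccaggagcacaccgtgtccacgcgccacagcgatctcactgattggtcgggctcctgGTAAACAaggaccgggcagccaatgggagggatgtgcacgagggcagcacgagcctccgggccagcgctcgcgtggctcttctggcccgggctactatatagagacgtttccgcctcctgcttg
On the arrays, SELENOP read 4662, 4867 and 5034 in vector cells and 75.5, 80.1 and 68 in cells labelled ERBB2, BTG1 4332, 4831 and 4985 against 264, 319 and 249, and TXNIP 3772, 3996 and 3958 against 322, 304 and 315. These genes and IGFBP6, given above, come from falls chosen for separate groups, so that separation is no result here.

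For the rest, genes were grouped in 43 function lists of 1649 different genes, 1363 of which were measured, and 42 of the lists are described. The desmosome, complement and coagulation regulators, collagens, nuclear receptors and fatty acid oxidation had the lowest medians, and nucleotide synthesis and microtubule genes the highest. Each list is described by its counts and its median log2 change, beside 20.8% of all genes called higher, 25.0% called lower and a median of -0.07, and no list was tested as a set. Where a list's shares lie near these, as for tight junction and Golgi transport genes, its counts are no result about the list. Smaller families within the lists, such as tubulins, were put together after the values were seen, and their counts are a description.

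**Figure D3:**
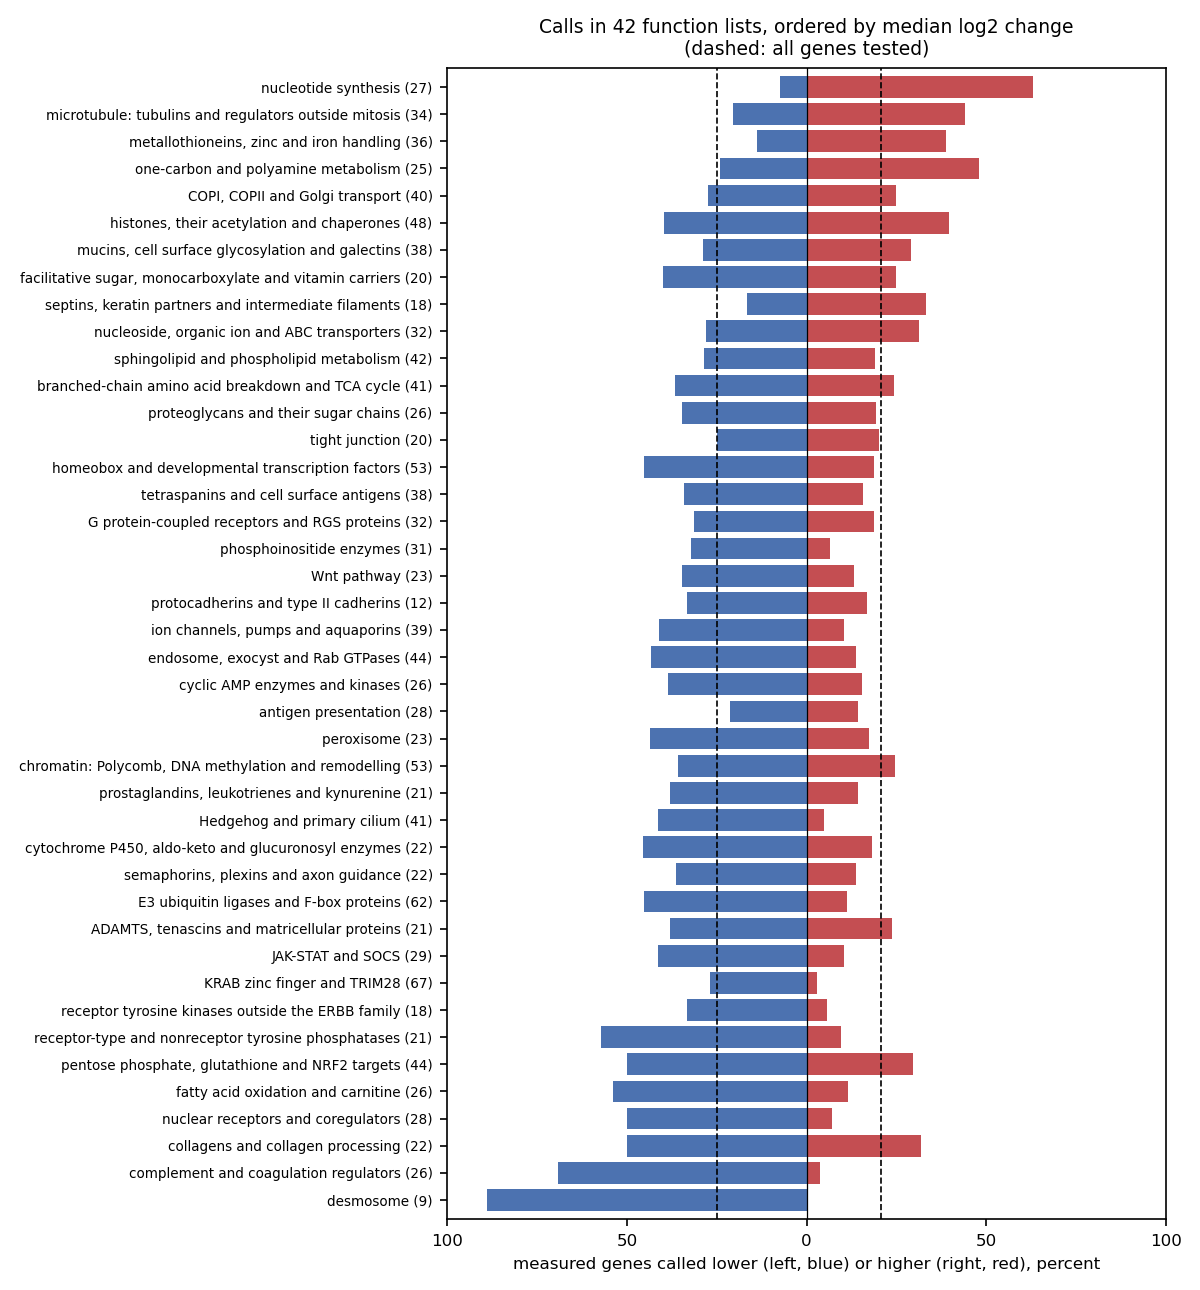
Percent of the measured genes of each of 42 lists called lower (left) and higher (right) in the arrays labelled ERBB2, ordered by median log2 change, with the number measured in brackets and the shares of all 13726 genes as dashed lines. Of 27 nucleotide synthesis genes 17 were higher and 2 lower, and of 9 desmosome genes 8 were lower.

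Among cell surface genes, desmosomes, the junctions that tie keratin filaments of neighbouring cells together, were lower almost throughout: 8 of 9 measured genes fell, 0 rose, and the median change was -0.86. The plakin DSP, which links the junction to keratin, read 6546, 7243 and 5984 on vector arrays and 2448, 2416 and 2644 on arrays labelled ERBB2 (-1.39 ± 0.07, adjusted p = 1.213e-11). The cadherins of the junction were lower as well, DSC2 at 552 ± 31.6 against 250.4 ± 26.8 (-1.10) and DSG3 at 1324 ± 44.7 against 619 ± 24.3 (-1.08), as was PERP, a tetraspan protein of the junction (-0.93). PKP3, a plakophilin, was the member not called (-0.01). Tight junction genes moved both ways, with 4 rises and 5 falls among 20 (median -0.11). The strand protein OCLN, occludin, rose, reading 135, 133 and 139 against 583, 602 and 641 (2.04 ± 0.12, adjusted p = 4.895e-11), while the scaffold TJP3 fell from 120.4 ± 15.4 to 20.8 ± 11 (-1.93) and the polarity proteins PATJ and PARD3 fell by 1.05 and 0.91 on the log2 scale. The count of rises was 2 without vector replicate 3 or without ERBB2 replicate 1. Protocadherins and type II cadherins numbered 12 measured, of which 2 rose and 4 fell (median -0.17). PCDH9 went from 471 ± 36 to 21.4 ± 9.29 (-3.73), PCDHB14 changed by -1.57 and the giant cadherin FAT2 by -1.44, while CDH11, a mesenchymal cadherin, read 3.09, 5.16 and 0.569 against 57.2, 47.7 and 48.7 (1.83) and was dim even in the higher group.

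Channels and pumps of the epithelial surface gave some of the largest falls. Of 39 measured genes 16 fell and 4 rose (median -0.19), the rises being 2 without vector replicate 3 or ERBB2 replicate 1. AQP3, a channel for water and glycerol, read 809.9, 908 and 851 on vector arrays and 81.2, 86.3 and 84.5 on arrays labelled ERBB2 (-3.12 ± 0.10, adjusted p = 4.164e-15). FXYD3, a regulatory subunit of the sodium pump, read 2932, 3619 and 3243 against 456, 462 and 417 (-2.83 ± 0.08, adjusted p = 1.243e-15). The epithelial sodium channel takes up sodium at the apical membrane and is built of an alpha, a beta and a gamma subunit. All 3 subunit genes fell, the gamma subunit SCNN1G from 1634, 1906 and 1796 to 167, 271 and 239 (-2.92), the beta subunit SCNN1B from 371 ± 41.6 to 53.1 ± 14 (-2.50) and the alpha subunit SCNN1A from 3398 ± 168 to 1559 ± 106 (-1.12). The plasma membrane calcium pump ATP2B4 was the next largest fall of the list (-2.42), and the rises were FXYD5 (0.50), the mechanically gated channel PIEZO1 (0.54), the store-operated calcium channel ORAI1 (0.59) and the inositol trisphosphate receptor ITPR1 (0.69).

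Mucins, glycosylating enzymes and galectins were split, with 11 rises and 11 falls among 38 (median 0.07). MUC1, the transmembrane mucin of the apical surface, fell, reading 2225, 2259 and 2142 against 415, 359 and 395 (-2.46 ± 0.09, adjusted p = 4.804e-14), and so did the sialyltransferase ST6GALNAC2 (-1.83). Of the enzymes that start O-linked sugar chains, GALNT14 rose (1.53), though 1 of its vector arrays read 45.3 and the other two under 6, and the fucosyltransferase FUT3 rose from 16.9 ± 1.42 to 63.6 ± 11 (1.27). The galectins LGALS8 (-1.01), LGALS3 (-0.71) and LGALS1 (-0.67) fell. Among tetraspanins and other surface antigens 6 rose and 13 fell of 38 (median -0.12). TSPAN31 changed by -1.63, the TGF-beta co-receptor CD109 by -1.30 and the tetraspanin CD9 by -1.23, against rises of TSPAN5 (1.34), the adhesion molecule L1CAM (1.24) and the epithelial adhesion molecule EPCAM (1.13).

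Matrix genes moved in both directions. Of 22 collagen and collagen-processing genes, 7 rose and 11 fell, with a median of -0.52 that was -0.31 when all probe sets of a gene were averaged. LOX, lysyl oxidase, which cross-links collagen and elastin, read 980.0, 1068 and 1046 on vector arrays and 147, 182 and 116 on arrays labelled ERBB2 (-2.69 ± 0.12, adjusted p = 1.195e-12). COL8A1, a short-chain collagen, moved the other way, reading 177, 142 and 159.6 against 980.2, 997 and 978 (2.52 ± 0.10, adjusted p = 1.718e-13). Type IV collagen is the network of basement membranes, and its chains split by pair: COL4A5 (-1.50) and COL4A6 (-1.54) fell while COL4A1 (0.70) and COL4A2 (0.80) rose. Of 9 hydroxylases and lysyl oxidases measured, 6 fell, among them the prolyl hydroxylase subunits P4HA2 (908 ± 114 against 298 ± 3.55, -1.55) and P4HA1 (-1.28), and LOXL1 alone rose (0.80).

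Proteoglycans and the enzymes of their sugar chains gave 5 rises and 9 falls among 26 genes (median -0.11). VCAN, versican, a large chondroitin sulfate proteoglycan, rose, reading 73.6, 69.8 and 41.4 against 388, 331 and 387 (2.33 ± 0.17, adjusted p = 8.012e-10). SULF2, a sulfatase that trims heparan sulfate, went from 279 ± 32.3 to 49.5 ± 7.81 (-2.17), perlecan, HSPG2, from 319.7 ± 48 to 70.7 ± 14.8 (-1.96) and decorin, DCN, from 1345 ± 82.8 to 378 ± 73.7 (-1.80). Decorin is also one of the fibroblast markers, whose sum was lower as given above. Among ADAMTS proteases, tenascins and matricellular proteins 5 rose and 8 fell of 21 (median -0.27). Besides SMOC1, thrombospondin THBS1 (1.16) and the latent TGF-beta binding protein LTBP2 (0.87) rose, whereas FBLN1, fibulin 1, went from 659 ± 20 to 179 ± 12.8 (-1.79), SPARC from 615 ± 77.5 to 219 ± 15.1 (-1.42) and SPOCK1 from 109.8 ± 13.3 to 24.2 ± 19.1 (-1.78).

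Most cytokine receptor genes that were called were lower. In the JAK-STAT list, which holds cytokine receptors, their kinases, the STAT factors and the SOCS inhibitors, 3 rose and 12 fell of 29 (median -0.29). GHR, the growth hormone receptor, read 207, 189 and 167 on vector arrays and 11.6, 12.3 and 0.803 on arrays labelled ERBB2 (-3.11 ± 0.22, adjusted p = 6.122e-10), a group of signals under 16. LIFR, the LIF receptor, read 247, 248 and 244 against 50.2, 32.5 and 25.6 (-2.36), and the interleukin 6 receptor IL6R 468, 522 and 494 against 111, 122 and 141 (-1.86). IL20RB went from 1690.3 ± 111 to 520.4 ± 28.8 (-1.67), and IL6ST, the signalling chain that the IL-6 and LIF receptors share, from 1393 ± 106 to 700.4 ± 24.3 (-0.97). Of 11 cytokine receptors measured 7 fell, and 2 rose, the IL-4 receptor chain IL4R (1.06) and IL13RA1 (0.30). Behind the receptors, JAK1 (-1.15) and STAT6 (-1.24) fell, while STAT3 was not called (-0.24). Of the 7 SOCS genes, feedback inhibitors of these receptors, SOCS2 was called, at 0.54.

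Semaphorins, plexins and other guidance molecules had 8 falls and 3 rises among 22 genes (median -0.26). SEMA3F, a secreted semaphorin that binds neuropilin receptors, read 1859.8, 2113 and 1898 against 239.8, 200.3 and 285 (-2.95 ± 0.10, adjusted p = 3.121e-14). SEMA3C fell from 1103 ± 28.7 to 388 ± 37.9 (-1.47) and the netrin receptor UNC5B from 427 ± 35 to 70.8 ± 11 (-2.36). Among the plexins, the receptors of semaphorins, PLXNB1 (-1.57) and PLXNB2 (-1.30) fell and PLXNA2 (1.08) and PLXNA1 (0.37) rose. Of the 8 semaphorins measured, 0 were called higher, 3 lower and 5 neither way, beside 20.8% and 25.0% of all genes called higher and lower.

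In the Wnt list, 3 rose and 8 fell of 23 (median -0.15), the falls being 5 without vector replicate 2 or 3. DKK1, a secreted inhibitor of the Wnt co-receptors, read 3996, 4253 and 4297 against 592, 528 and 641 (-2.80 ± 0.08, adjusted p = 1.248e-15). The ligand WNT5A went from 109 ± 28.4 to 12.9 ± 12.5 (-2.18) and the R-spondin receptor LGR4 changed by -1.24, while the nuclear effector LEF1 (1.25) and the receptor FZD5 (1.20) rose. Receptor tyrosine kinases outside the ERBB family counted 6 falls and 1 rise among 18 (median -0.33). ROS1 went from 203 ± 31.9 to 37.5 ± 6.22 (-2.03), AXL, the GAS6 receptor, from 1075 ± 181 to 386 ± 33.2 (-1.43), the IGF-I receptor IGF1R from 373 ± 46.2 to 156 ± 13.7 (-1.17) and KDR, also among the endothelial markers, changed by -1.09. The insulin receptor INSR (-0.93) and MET (-0.88) fell as well, and the single rise, TYRO3 (0.67), was not called without vector replicate 1 or 2, or without ERBB2 replicate 3. Tyrosine phosphatases were lower in 12 of 21 cases and higher in 2 (median -0.35, and -0.10 with all probe sets of a gene averaged; 1 rise without ERBB2 replicate 3). PTPN14 read 2633, 2598 and 2780.3 against 751, 802 and 828 (-1.73 ± 0.08, adjusted p = 1.281e-12), and the receptor-type PTPRK went from 1059 ± 33.5 to 370.0 ± 37.6 (-1.48), with PTPN13 at -0.93 and PTPRE at -0.91.

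G protein-coupled receptors and the RGS proteins that switch off their G proteins gave 6 rises and 10 falls among 32 (median -0.13). RGS2 read 2165, 2189 and 2035 against 357, 362 and 409 (-2.45 ± 0.09, adjusted p = 3.121e-14) and the thrombin receptor F2R went from 341 ± 46.7 to 63.4 ± 25.7 (-2.21). The adhesion receptor ADGRG6 changed by -1.37, and the prostaglandin E receptor PTGER4 rose from 28.1 ± 7.44 to 104 ± 24 (1.43). Both bradykinin receptors, BDKRB1 (-1.29) and BDKRB2 (-0.97), fell, and the adenosine receptors ADORA2B (1.07) and ADORA1 (0.84) rose. Cyclic AMP enzymes and kinases counted 10 falls and 4 rises among 26 (median -0.19), with the phosphodiesterase PDE7A (-1.49), the adenylyl cyclase ADCY9 (-1.29) and the kinase regulatory subunit PRKAR2B (-1.08) lower and CREB5 higher (4.91 ± 4.58 to 45.5 ± 14.4, 1.55).

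Phosphoinositide enzymes counted 10 falls and 2 rises among 31 (median -0.14), led by the class II kinase PIK3C2B, which went from 166 ± 26 to 13.5 ± 2.59 (-2.61), the lipid phosphatase INPP5D (-1.50) and the phospholipases PLCD3 (-1.40) and PLCD1 (-1.15, adjusted p = 0.01384). The call of PLCD1 ended without vector replicate 2 (-0.996) or ERBB2 replicate 1 (-0.87) or 3 (-1.01), with no filter on low signal and in a fit with no variance trend.

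Complement and coagulation regulators, proteins that epithelia secrete or carry on their surface, were mostly lower. Of 26 measured regulators of complement and coagulation 18 fell and 1 rose (median -0.75), the rises being 2 without vector replicate 2. C3, the central complement component, read 5107, 5482 and 5040.1 on vector arrays and 1091, 986 and 1009 on arrays labelled ERBB2 (-2.32 ± 0.09, adjusted p = 5.218e-14). Among 7 complement components and activating enzymes measured, C1R (225 ± 46.6 to 54.1 ± 15.5, -1.79), C1S (-1.80), factor B, CFB (-1.21), and factor I, CFI (-1.64), fell as well, and C5 and CFD were not called. The membrane regulators CD59 (-1.08), CD55 (-0.83) and CD46 (-0.42), which protect cells from their own complement, were also lower. CLU, clusterin, a secreted chaperone, read 602, 713 and 602 against 94.5, 77.9 and 80 (-2.71), and the serpin SERPINF1, an inhibitor of angiogenesis, 168, 173 and 180.4 against 7.43, 14.2 and 5.15 (-2.94). SERPINB13 (-2.29), SERPINA3 (-1.35) and SERPINA1 (-0.99) fell, and SERPINB8 rose (1.06). Antigen presentation genes counted 6 falls and 4 rises among 28 (median -0.20), with 2 rises without vector replicate 3, ERBB2 replicate 1 or ERBB2 replicate 3. The class I light chain B2M read 10519, 10754 and 10620.2 against 6491, 6403 and 6516 (-0.72), HLA-E went from 1306 ± 193 to 715 ± 74.5 (-0.85) and the loading factor TAPBP from 787 ± 57.8 to 376 ± 48.1 (-1.04), while the peptide transporter subunit TAP2 rose (0.72). HLA genes are close relatives, and cross-hybridisation between them was not tested. Enzymes and receptors of prostaglandins, leukotrienes and kynurenine gave 3 rises and 8 falls among 21 (median -0.22), with the lipoxygenase ALOX15B (544 ± 64 to 136 ± 19.3, -1.89), the prostaglandin-degrading HPGD (-1.82), the epoxide hydrolase EPHX1 (-1.39) and the leukotriene receptor LTB4R (-1.28) among the falls.

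**Figure D4:**
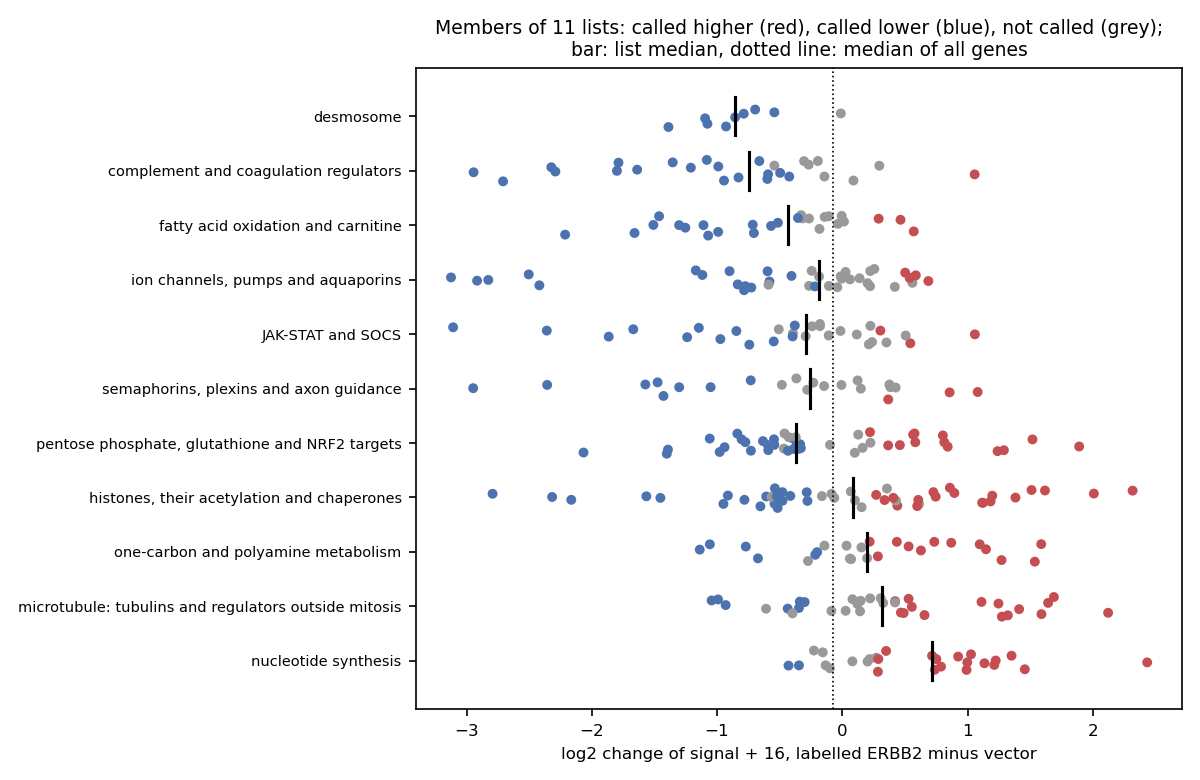
Log2 change of signal + 16 (labelled ERBB2 minus vector) of every measured member of 11 lists, one point a gene, red called higher, blue called lower and grey not called, with each list's median as a bar and the median of all genes, -0.07, as a dotted line. Desmosome, complement and fatty acid oxidation genes lie mostly left of the line, nucleotide synthesis genes mostly right of it, and histone genes on both sides.

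Nucleotide synthesis, which supplies the precursors of DNA and RNA, was mostly higher: 17 of 27 measured genes were higher and 2 lower (median 0.72). CTPS1, which makes CTP, read 122, 104 and 91.7 on vector arrays and 664, 625 and 630.1 on arrays labelled ERBB2 (2.43 ± 0.11, adjusted p = 1.175e-12). CAD, the enzyme that starts pyrimidine synthesis, read 108, 134 and 125 against 358, 345 and 385 (1.46), and UMPS, which finishes UMP, 221, 216 and 173 against 452, 481 and 556 (1.22). PRPS1, which makes the activated ribose that purines and pyrimidines share, read 233, 214 and 219 against 587, 596 and 589 (1.35). On all 4 genes every array labelled ERBB2 was above every vector array. They were named for their large changes, and groups did not overlap for 52.7% of all genes, so this is no further result. Of 9 purine synthesis genes 7 rose and 0 fell, PPAT, the first committed enzyme, from 260.1 ± 29.5 to 533 ± 58 (0.99) and ATIC, the last, from 812 ± 50.8 to 1637 ± 77.6 (1.0), whereas IMPDH1 (0.08) and IMPDH2 (-0.10) were not called. The falls of the list were PRPSAP1 (-0.43) and the salvage enzyme APRT (-0.35). Replication genes such as MCM2, given above, rose with this list on the same arrays, and their part in it was not tested.

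One-carbon and polyamine metabolism gave 12 rises and 6 falls among 25 genes (median 0.20), the falls being 3 without vector replicate 1 and 2 without vector replicate 2. Polyamines are made from ornithine and methionine. ODC1, ornithine decarboxylase, read 1231, 1241 and 1211 against 3584, 3672 and 3519.7 (1.54 ± 0.06, adjusted p = 3.788e-13). AMD1, which supplies the aminopropyl donor, read 381, 462 and 452 against 1438, 1515 and 1068 (1.59), and SRM, spermidine synthase, 322, 409.8 and 377 against 824, 981 and 934 (1.27). MAT2A, the enzyme that makes S-adenosylmethionine, went from 1584 ± 116 to 3527 ± 263 (1.15), while its regulatory subunit MAT2B fell (-1.14), as did the acetyltransferase SAT2 (-1.06) and the cytosolic SHMT1 (-0.77). The mitochondrial folate enzymes SHMT2 (0.53), MTHFD2 (0.87) and ALDH1L2 (1.1) rose.

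The E-box was found in the promoters of 5 of 25 nucleotide synthesis genes and 2 of 19 one-carbon and polyamine genes with a RefSeq promoter, or 20.0% and 10.5% against 8.68% of all matched genes tested. Shown are the promoters of PPAT and ATIC, the first and last steps to IMP, of DHODH and of SRM, because their genes rose, with the match in capitals, 5′ to 3′ on the strand of the gene (GRCh38.p14). The match begins 182 bases upstream of the start in PPAT (chr4:56435616-56435865, minus strand), 46 in ATIC (chr2:215311809-215312058, plus), 159 in DHODH, the mitochondrial enzyme of pyrimidine synthesis (chr16:72008494-72008743, plus), and 199 in SRM (chr1:11060019-11060268, minus).
PPAT: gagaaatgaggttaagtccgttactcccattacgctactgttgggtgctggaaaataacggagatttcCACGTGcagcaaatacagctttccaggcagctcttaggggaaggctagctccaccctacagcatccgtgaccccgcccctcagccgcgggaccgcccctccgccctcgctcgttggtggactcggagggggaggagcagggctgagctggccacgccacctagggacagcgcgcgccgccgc
ATIC: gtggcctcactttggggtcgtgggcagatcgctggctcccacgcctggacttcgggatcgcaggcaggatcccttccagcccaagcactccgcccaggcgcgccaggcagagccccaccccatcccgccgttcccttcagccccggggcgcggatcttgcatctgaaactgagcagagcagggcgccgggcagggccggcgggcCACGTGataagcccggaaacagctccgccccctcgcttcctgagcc
DHODH: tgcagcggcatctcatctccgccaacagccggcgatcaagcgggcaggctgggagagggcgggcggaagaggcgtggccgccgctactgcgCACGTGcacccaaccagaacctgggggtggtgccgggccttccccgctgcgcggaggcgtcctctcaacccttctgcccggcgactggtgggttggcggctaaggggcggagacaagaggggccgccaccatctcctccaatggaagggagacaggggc
SRM: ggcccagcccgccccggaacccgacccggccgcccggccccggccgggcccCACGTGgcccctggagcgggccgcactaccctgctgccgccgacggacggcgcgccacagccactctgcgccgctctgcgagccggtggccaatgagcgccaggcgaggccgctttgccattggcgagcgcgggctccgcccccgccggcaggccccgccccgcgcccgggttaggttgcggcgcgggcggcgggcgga
DHODH rose from 26.2 ± 12.3 to 74.5 ± 10.9 (1.13). Of the other promoters with the motif in the nucleotide synthesis and one-carbon lists, MTHFD1 (0.63) and AK4 (0.29) belong to genes that rose, and UCKL1 was not called (-0.13).

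Fatty acid oxidation moved the opposite way from nucleotide synthesis, with 14 falls and 3 rises among 26 genes (median -0.43). CRAT, carnitine acetyltransferase, read 136, 175 and 165 on vector arrays and 16.8, 18.3 and 30.8 on arrays labelled ERBB2 (-2.21 ± 0.18, adjusted p = 3.922e-09). ACSL1, which activates long-chain fatty acids, read 5182, 5276 and 4869 against 1708, 1621 and 1497 (-1.66), and ACADM, the medium-chain dehydrogenase, 1485, 1529 and 1532 against 420.5, 638 and 584 (-1.46). PPARA, a nuclear receptor that induces this pathway in liver, went from 103 ± 19 to 25.8 ± 5.44 (-1.51). Of 15 mitochondrial beta-oxidation enzymes 8 fell and 0 rose, among them both subunits of the trifunctional protein, HADHA (-0.99) and HADHB (-1.30), and CPT2 (-0.57), while the entry enzyme CPT1A was not called (-0.14). In peroxisomes, which shorten very long and branched fatty acids, 4 rose and 10 fell of 23 (median -0.21; 2 rises without ERBB2 replicate 2), with PEX11A (-1.42), the acyltransferase CROT (424 ± 85.7 to 151 ± 21.4, -1.38) and PHYH (-1.27) lower and ACOX2 higher (95.4 ± 11.3 to 290.3 ± 33.1, 1.46).

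Branched-chain amino acid breakdown and the TCA cycle gave 10 rises and 15 falls among 41 (median -0.09). GLUD1, glutamate dehydrogenase, read 4598, 4592 and 5158 against 1268, 1015 and 918 (-2.16 ± 0.10, adjusted p = 8.419e-13). GLUL, given above, fell as well. ALDH6A1, of valine breakdown, went from 352 ± 22.4 to 72.7 ± 13.4 (-2.06), pyruvate carboxylase, PC, from 362 ± 33.2 to 114 ± 13.8 (-1.55), and the propionyl-CoA carboxylase subunit PCCA changed by -0.82, whereas its partner PCCB rose (0.65). The isocitrate dehydrogenase subunit IDH3A (0.70) and the transaminases GOT1 (0.56) and GOT2 (0.70) rose.

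Glutathione, pentose phosphate and NRF2 target genes were called in 35 of 44 cases, 13 higher and 22 lower (median -0.37). The genes that supply cysteine and make glutathione were higher. The cystine importer SLC7A11 read 161, 146 and 144 against 663, 604 and 539 (1.89 ± 0.13, adjusted p = 3.911e-10). The ligase subunit GCLM read 457, 385 and 449 against 1292, 1294 and 1196 (1.52), with GSS at 0.84 and GCLC at 0.46. The transferases that use glutathione were lower, 8 of 11 falling and GSTO1 alone rising (0.80). GSTA4 read 795, 751 and 848 against 204, 181 and 153 (-2.07) and GSTP1 4513, 5968 and 5121 against 1813, 2028 and 2004 (-1.40). The glutathione reductase GSR (-1.39), the superoxide dismutase SOD2 (-1.06), the peroxidases GPX1 (-0.84) and GPX4 (-0.73), and NFE2L2, which encodes NRF2 itself (-0.94), fell. SRXN1 (1.24), NQO1 (0.81) and TXNRD1 (0.58), which are among the targets of NRF2, rose. Targets were not counted apart from the rest of the list, in which falls outnumbered rises. The rises named therefore give no direction for NRF2 targets as a group. The split between synthesis and transferases was read from the values and was not tested.

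Sugar, monocarboxylate and vitamin carriers gave 5 rises and 8 falls among 20 (median 0.06). The monocarboxylate carrier SLC16A7 read 1104, 1027 and 998 against 202, 222 and 264 (-2.12 ± 0.10, adjusted p = 3.649e-12), and its relatives SLC16A14 (-1.84) and SLC16A4 (-1.53) fell too, whereas the folate carrier SLC19A1 rose from 48.6 ± 2.22 to 233 ± 27.2 (1.94) and the mitochondrial folate carrier SLC25A32 by 1.31. Nucleoside, organic ion and ABC transporters gave 10 rises and 9 falls among 32 (median 0.02, and -0.06 with all probe sets of a gene averaged). ABCC3, an exporter of conjugates, read 136, 184 and 147 against 801, 752 and 824 (2.24 ± 0.12, adjusted p = 1.242e-11), and SLC43A3, a purine base carrier, went from 209 ± 32.7 to 709 ± 22.5 (1.70), with ABCA5 (-1.12) and ABCC10 (-1.10) lower. Metallothioneins, zinc and iron genes counted 14 rises and 5 falls among 36 (median 0.22; 3 falls without vector replicate 2 or ERBB2 replicate 3). STEAP1, of a metalloreductase family, went from 28.8 ± 3.58 to 158 ± 28.9 (1.94), the zinc importer SLC39A4 from 192 ± 25.1 to 428 ± 29.1 (1.1) and the zinc exporter SLC30A1 from 1139 ± 114 to 2179.7 ± 199.6 (0.93), while the iron-siderophore binder LCN2 fell (-1.48). The metallothioneins themselves moved little, 4 of 7 rising by 0.21 to 0.60 and 0 falling, and they are near-identical copies whose signals cannot be told apart by name.

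Sphingolipid and phospholipid genes gave 8 rises and 12 falls among 42 (median -0.05), with the ceramidase ACER3 (97 ± 11.5 to 381 ± 7.25, 1.82) and the monoglyceride lipase MGLL (1.47) higher and the sphingosine phosphate phosphatase SGPP2 (2348 ± 114 to 668 ± 28.5, -1.79) and the phospholipase PLD1 (-1.74) lower. Cytochrome P450, aldo-keto and glucuronosyl enzymes gave 4 rises and 10 falls among 22 (median -0.25). CYP1B1, which oxidises estrogens and aromatic hydrocarbons, read 367, 375 and 347 against 2394, 2387 and 2417 (2.67 ± 0.09, adjusted p = 1.36e-14), and the 2 groups lay far apart. CYP4B1 went from 419 ± 8.72 to 63 ± 10.9 (-2.47), CYP39A1 from 150.5 ± 17.2 to 14 ± 7.11 (-2.50) and the steroid reductase AKR1C3 from 4663 ± 154 to 1310.4 ± 196 (-1.83), and AHR, the receptor that induces CYP1B1 in response to such hydrocarbons, was lower (-0.68).

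In the nucleus, most histone chaperone genes rose, and more histone genes fell than rose. The list of histones, their acetylation and chaperones had 19 rises and 19 falls among 48 genes (median 0.08). Histone chaperones escort new histones, and HAT1 acetylates them. Of 15 genes for chaperones, HAT1 and their partners, SLBP among them, 13 rose. ASF1B read 12.3, 60.6 and 44.1 on vector arrays and 208, 255 and 249.6 on arrays labelled ERBB2 (2.32 ± 0.25, adjusted p = 3.604e-07), with NASP (232 ± 15.7 to 744 ± 49.6, 1.62), CHAF1B (1.51) and HAT1 (1.38), while NPM1 (-0.28) and NAP1L1 (-0.42) fell. Of 12 histone genes 6 fell and 2 rose. H2AC6 read 1231, 1365 and 1259 against 191, 188 and 140.1 (-2.79 ± 0.12, adjusted p = 3.018e-13), H2BC5 796, 767 and 813 against 173, 131 and 138 (-2.32) and H2BC12 changed by -1.56, whereas the variants H2AX (244 ± 51.8 to 1019.9 ± 69, 2.01) and H2AZ1 (0.89) rose. Histone genes are near-identical copies, so a probe set may report more than its named gene, and most messages of replication-dependent histones lack the poly(A) tail on which this labelling is primed. Of 13 deacetylases and sirtuins 7 fell, HDAC5 from 104 ± 4.28 to 12.1 ± 10.8 (-2.16), and HDAC2 (0.61) and HDAC3 (0.34) rose.

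Chromatin regulators gave 13 rises and 19 falls among 53 (median -0.21). Besides UHRF1, the remodeller HELLS went from 26.8 ± 7.14 to 189 ± 28.4 (2.26), the maintenance methyltransferase DNMT1 from 143 ± 35.8 to 407 ± 58.7 (1.42) and the Polycomb protein CBX2 from 29.6 ± 12.2 to 90.2 ± 11.1 (1.25), and the largest falls were the histone demethylase KDM3A (-1.22) and the remodelling subunit ARID1B (-1.06). KRAB zinc finger genes, a large family of repressors that silence transposable elements with TRIM28, had 18 falls and 2 rises among 67 (median -0.30), and 4 rises without ERBB2 replicate 3. That share of falls is near the 25.0% of all genes and is no result about the list. Fewer of its genes were called at all, 29.9% against 45.8% of all genes. ZNF91 changed by -1.20, ZNF302 by -1.03, ZNF426 by -0.90 and ZNF611 by -0.85, and TRIM28 itself was not called (0.19). These genes share long repeats, and cross-hybridisation between them was not tested.

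Nuclear receptors and coregulators were lower in 14 of 28 cases and higher in 2 (median -0.47; 1 rise without vector replicate 1 or 2). Both thyroid hormone receptors, THRA (98 ± 15 to 23.3 ± 20, -1.67) and THRB (-1.24), fell, the glucocorticoid receptor NR3C1 read 1206, 1028 and 1102 against 423, 467 and 509.5 (-1.23 ± 0.09, adjusted p = 1.821e-09), and the liver X receptor NR1H3 changed by -1.15. PPARG (0.65) and NR2F1 (0.92) rose. Homeobox and other developmental factors gave 10 rises and 24 falls among 53 (median -0.12). ETS2 read 1605, 1650.3 and 1538 against 299.9, 229 and 175 (-2.72 ± 0.13, adjusted p = 3.485e-12), the epithelial ETS factor ELF3 went from 150.5 ± 12.8 to 29.3 ± 8.04 (-1.89) and HOXC6 from 796 ± 93.3 to 219 ± 36.7 (-1.80). ID factors, which block basic helix-loop-helix factors, fell in 3 of 4 cases, ID2 from 201 ± 30.7 to 45.4 ± 7.68 (-1.82), ID3 by 1.28 and ID1 by 0.99 on the log2 scale. The 5 measured Iroquois factors all fell, from IRX3 (3595 ± 429 to 1386 ± 314, -1.38) and IRX5 (-1.24) to IRX2 (-0.33), and the rises included GRHL3, a factor of epidermal barrier genes (1.24), HES1 (1.09) and TFAP2A (1.08).

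Most tubulin genes rose. The microtubule list had 15 rises and 7 falls among 34 genes (median 0.32), and 8 of 9 tubulin genes rose. TUBB4B read 839.8, 947 and 1000.4 on vector arrays and 3793, 4376 and 4111 on arrays labelled ERBB2 (2.12 ± 0.08, adjusted p = 5.909e-14), TUBB3 582, 627 and 612 against 2070.4, 1957 and 1951 (1.69) and TUBB2A 139.6, 154 and 139.6 against 448, 537 and 473 (1.64). TUBA1A, an alpha tubulin abundant in neurons, was the exception and fell from 413 ± 12.6 to 193 ± 18 (-1.04). Tubulins are near-identical copies, and how far a probe set reports its relatives was not tested. STMN3, of the stathmin family that binds free tubulin, rose (1.59). Among septins, plakins and intermediate filaments 6 rose and 3 fell of 18 (median 0.03, and -0.04 with all probe sets of a gene averaged). The lamins, filaments of the nuclear envelope, were all called higher, LMNB1 from 77.8 ± 20.9 to 321 ± 26.3 (1.87), LMNB2 from 52 ± 3.34 to 205 ± 21.4 (1.70) and LMNA by 0.21. The plakins split, with PPL, periplakin, reading 1479.7, 1447 and 1398 against 464, 365 and 429.9 (-1.75) and EPPK1, epiplakin, 215, 237 and 214 against 577, 521 and 581 (1.28).

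Hedgehog and primary cilium genes, the cilium being the antenna that quiescent cells build and Hedgehog signalling needs, had 17 falls and 2 rises among 41 (median -0.22). That count of falls depended on the arrays: it was 9 without vector replicate 1 and 11 without vector replicate 3, ERBB2 replicate 2 or ERBB2 replicate 3. GAS1 led the falls, followed by the Bardet-Biedl gene BBS12 (106 ± 9.19 to 33.8 ± 5.41, -1.29), the transport protein IFT80 (-0.83) and BBS7 (-0.83). Among COPI, COPII and Golgi transport genes 10 rose and 11 fell of 40 (median 0.09; 6 rises without vector replicate 3), of which the SNARE YKT6 changed most (51.5 ± 22.8 to 195 ± 18, 1.70). KDELR3 (0.85) and BET1 (0.67) rose and the coat subunit COPG1 fell (-0.66). Endosome, exocyst and Rab genes had 19 falls and 6 rises among 44 (median -0.19), with RAB30 reading 241, 216 and 215 against 21.4, 20.4 and 33.1 (-2.56 ± 0.20, adjusted p = 2.294e-09), RAB5B at -1.14, RAB25 at -0.88 and the exocyst subunit EXOC6 higher (1.26). Ubiquitin ligases and F-box proteins had 28 falls and 7 rises among 62 (median -0.27). CBLB, a ligase that turns off receptor tyrosine kinases, went from 345 ± 40.4 to 71.6 ± 4.8 (-2.04), and KLHL24 (-1.82) and FBXL16 (1682 ± 309.9 to 513 ± 26.1, -1.67) fell, whereas FBXO5, an inhibitor of the anaphase-promoting complex, rose (1.74) and so did CBLC (1.25).

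A gene's direction sometimes depended on the probe set. Of 6818 genes with at least 2 probe sets past the filter, 2510 had at least 2 called, and 225 of these, or 8.96%, had probe sets called in both directions; for 6 genes the changes were at least 2-fold each way. The 12 widest gaps were in ZNF451, NEDD4L, SRRM2, RFC5, AHNAK, TMEM165, OGFOD1, IDI1, DIDO1, HNRNPD, N4BP2L2 and MALAT1. For NEDD4L, the ubiquitin ligase that removes the epithelial sodium channel from the membrane, the brightest probe set fell from 711 ± 51.1 to 222 ± 7.93 (-1.61) together with 2 others, while a dimmer one rose from 35.1 to 91.3 (1.08, adjusted p = 8.185e-05). RFC5, of the clamp loader of DNA replication, fell by its brightest probe set (639 ± 34.4 to 335 ± 62.3, -0.91) and rose by the other two (1.69 and 1.44). For SRRM2, a splicing-associated protein, the brightest probe set changed by -1.80 and another by 0.88, and for HNRNPD, an RNA-binding protein, 5 probe sets rose, the brightest by 1.16, against 1 that fell by 1.15 on the log2 scale. AHNAK, a giant scaffold, changed by -1.57 at its brightest probe set, IDI1, of sterol synthesis, by 1.37, OGFOD1 by 1.08, TMEM165 by 0.32 and ZNF451 by -0.48. In DIDO1 (0.03, adjusted p = 0.9184), N4BP2L2 (0.22, adjusted p = 0.08458) and the nuclear RNA MALAT1 (-0.28, adjusted p = 0.09385) the brightest probe set was not called although others were. Probe positions were not used here, so transcript ends, introns and other isoforms cannot be told apart.

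**Figure D5:**
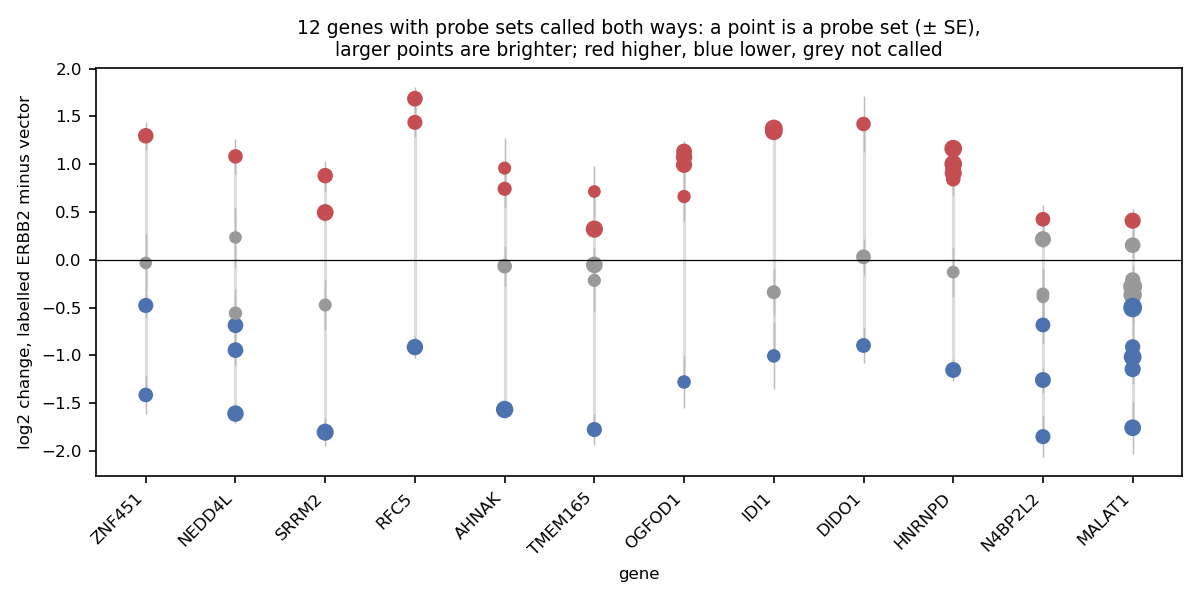
Log2 change of signal + 16 (labelled ERBB2 minus vector) with its SE for every probe set past the filter of the 12 genes with the widest gap between probe sets called in opposite directions; larger points are brighter, red called higher, blue called lower and grey not called. In RFC5 and SRRM2 the brightest and the dimmer called probe sets lie on opposite sides of 0.

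By chromosome, median changes ran from -0.15 on chromosome 14, with 444 genes, to -0.00016 on chromosome 22, with 327. Chromosome 19, which holds many of the KRAB zinc finger genes, had the lowest share of rises, 13.6% of 926 genes against 20.8% of all genes, and also a low share of falls, 20.4% against 25.0%, so fewer of its genes were called in either direction. Chromosome 21 had the highest share of rises, 24.8% of 157. ERBB2 lies on chromosome 17, where 20.0% of 811 genes rose and 23.2% fell with a median of -0.05. No chromosome was tested against the others.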

How the data were processed

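The data were 9 one-colour arrays in 3 groups of 3, of which the vector and ERBB2 groups were compared. The deposited values are linear intensities per probe set, computed by the authors with MAS5 per the submitters' processing notes, with no version stated, and no detection calls were used. Each array had already been scaled by the authors to 1 trimmed mean, as the values show, so a change is relative to the rest of the same array. From these values, log2(signal + 16) was fitted in limma 3.58.1 (R 4.3.3) with a mean for each of the 3 groups and a variance trend, after leaving out 62 controls and probe sets whose mean signal was at or under the 40th percentile. P-values were adjusted by Benjamini-Hochberg over all 32768 probe sets, and a call is an adjusted p under 0.05. The fit was tested on simulated data.

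Names came from GEO's platform annotation: 41097 probe sets had 1 gene, 1801 several and 11777 none, and 41043 of the named ones matched the RefSeq table (GRCh38.p14), which changed 0 symbols. A gene's value is that of its probe set with the highest mean past the filter. Of the lists, 1 is not reported here. The comparison, its lists and its tests were chosen with earlier results of these data known. Genes named are the 4 called members of each list with the largest change, about 15 of the 40 largest rises and of the 40 largest falls, from the largest down and passing over genes that earlier text on these data named, the 12 genes with the widest gap between opposite calls, and ERBB2. The 40 come from called genes whose groups do not overlap and whose higher group averaged over 74.1. Other members named, the smaller families, and the promoters printed were picked after their values were seen. Alternatives changed the pseudocount, filter, scaling, variance model, arrays used, replicate block and probe set rule.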

Additional observations from a re-analysis of the deposited data

How the results depend on the processing

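Each alternative changed 1 choice. The number of probe sets called, 12689, lay between 11688 and 12883 under other pseudocounts, filters, scalings and variance models, was 12146 with only the 6 arrays compared, and lay between 11338 and 12614 with 1 array left out. The count changed at least 2-fold depends on the pseudocount by construction, with 3631 at 16, 1667 at 64 and 5292 at 1. With equal array medians 6293 probe sets were higher and 6143 lower. Genes with probe sets called both ways, 225, numbered between 163 and 246 over the alternatives.

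The brightest ERBB2 probe set changed by between -0.93 and -0.54 with 1 array left out, and its call ended without vector replicate 2 (-0.55) or ERBB2 replicate 2 (-0.54). The dimmest ERBB2 probe set changed by between -0.00878 and 0.296. Of the 256 genes chosen by rule, PLCD1, TMEM165 and ERBB2 lost a call under some of 19 alternatives, TMEM165 without a variance trend. The uncalled brightest probe set of DIDO1 changed by 0.03, and by between -0.124 and 0.238 with 1 array left out, with a turned sign without vector replicate 1 (-0.0203) or 3 (-0.124) or ERBB2 replicate 1 (-0.120). That of N4BP2L2 was called with equal array medians, and that of MALAT1 with only the 6 arrays compared, with a replicate block and without EGF replicate 1 or 2. With all probe sets of a gene averaged, the medians of the septin list (-0.0429 for 0.0279) and of the nucleoside and ABC transporter list (-0.0579 for 0.0228) turned, as did that of chromosome 21 with all its probe sets (0.0040 for -0.06). Further list counts that moved by over 1.5 times were rises at the 60th percentile filter (protocadherins 0, phosphoinositide enzymes 1), with equal medians (tyrosine phosphatases 4), and without a variance trend (KRAB genes 4, ion channels 2). The single rise among receptor tyrosine kinases was also lost at a pseudocount of 1, with either other filter and with array weights. Cilium falls were 11 with no filter and with no trend, metal gene falls 3 under both and with equal medians, and one-carbon falls 3 without the filter. The cause was not tested.

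The replicate numbers share only a number: deviations of same-numbered arrays from their group means correlated between -0.030 and 0.019. With the number as a replicate block 12551 probe sets were called, 5761 higher and 6790 lower. Low signal limits dim genes, whose fold changes are understated, and 3 arrays a group limit every precision.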
